A study of Rattus norvegicus with 8 samples.

Results

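The genes of 6 ATP-binding cassette (ABC) drug efflux pumps were described in the rat hippocampus: Abcb1a, Abcb1b, Abcc1, Abcc4, Abcc5 and Abcg2. They were chosen by name, as the rows whose NCBI GeneID is that of each gene, and were 6 of the 22601 genes measured. All 6 had a mean of at least 0.1 FPKM over the libraries (a library's fragments on a gene, divided by transcript length and by all mapped fragments), as did 15593 genes in all. The RNA came from the hippocampus of 8 wild-type Wistar rats weighing 180 to 220 g, with 1 library per rat. Con. rats (n = 3) received saline and the solvent of the drug. PTZ rats (n = 3) received the convulsant pentylenetetrazole intraperitoneally at 35 mg/kg every 48 h, 14 injections over 28 days with 60 mg/kg on the last day, which kindles seizures, and then the solvent. Q808 rats (n = 2) were kindled in the same way and then received the anticonvulsant compound Q808 by gavage at 30 mg/kg daily for 28 days. Both kindled groups were given a further PTZ dose below the seizure threshold before the tissue was taken, so chronic kindling and that last dose cannot be told apart, and Q808 was given to kindled rats only.

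ABC efflux pumps use ATP to move drugs, conjugates and signalling molecules out of cells. In brain capillaries, P-glycoprotein, the breast cancer resistance protein and several multidrug resistance-associated proteins sit in the endothelial membranes and return many compounds, among them some antiseizure drugs, to the blood. In rodents P-glycoprotein is encoded by a pair of neighboring genes, Abcb1a and Abcb1b, and seizures have been linked to its induction through glutamate and cyclooxygenase signalling. A comparison of the pumps between Con., PTZ and Q808 rats therefore asks whether their RNA differed after kindling and after the drug.

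The P-glycoprotein genes differed in opposite directions between the library sets described further on, so their promoter windows are shown, together with that of Abcg2, whose log2 change from Con. to PTZ was the furthest from 0. Windows run from 250 bases before to 50 after the annotated start and come from RefSeq (GRCr8), which held 5 of the 6 genes and not Abcc5. In the first pair, capitals mark runs of at least 12 bases found in both windows. In Abcg2, capitals mark GC boxes (GGGCGG), a cyclic AMP response element (TGACGTCA) and a xenobiotic response element core (GCGTG), read on both strands.
Abcb1a, chr4:26397599-26397898, minus strand: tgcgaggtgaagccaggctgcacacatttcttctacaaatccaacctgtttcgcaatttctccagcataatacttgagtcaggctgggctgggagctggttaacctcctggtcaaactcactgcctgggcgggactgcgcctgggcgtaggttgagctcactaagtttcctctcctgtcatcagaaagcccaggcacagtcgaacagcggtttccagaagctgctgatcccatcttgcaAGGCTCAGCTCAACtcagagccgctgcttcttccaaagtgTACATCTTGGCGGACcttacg
Abcb1b, chr4:26279980-26280279, minus strand: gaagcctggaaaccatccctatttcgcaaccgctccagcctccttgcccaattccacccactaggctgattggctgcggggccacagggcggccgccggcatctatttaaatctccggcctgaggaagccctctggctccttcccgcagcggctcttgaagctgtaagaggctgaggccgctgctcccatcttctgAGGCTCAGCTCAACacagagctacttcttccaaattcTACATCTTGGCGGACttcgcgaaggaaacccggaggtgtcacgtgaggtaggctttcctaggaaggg
Abcg2, chr4:89075224-89075523, plus strand: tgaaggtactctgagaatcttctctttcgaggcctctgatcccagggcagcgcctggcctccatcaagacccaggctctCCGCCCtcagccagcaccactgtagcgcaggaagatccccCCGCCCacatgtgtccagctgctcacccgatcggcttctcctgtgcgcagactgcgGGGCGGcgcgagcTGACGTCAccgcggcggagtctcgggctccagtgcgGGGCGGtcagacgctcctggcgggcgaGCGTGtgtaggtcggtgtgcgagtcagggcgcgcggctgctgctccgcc
The P-glycoprotein windows shared a run of 14 and a run of 15 bases in the same order, and 5 of 33467 other promoters (0.0149%) shared a run of 15 bases or more with Abcb1a. The Abcb1b window held 2 CCAAT boxes (CCAAT, in 37.5% of promoters), and the Abcb1a window held none. Abcg2 held 4 GC boxes, Abcc1 held 5, and Abcb1a, Abcb1b and Abcc4 held 1 each, where 33.1% of promoters held any. The cyclic AMP response element lay 62 bases before the start of Abcg2 and is found in 1.83% of promoters. The xenobiotic core occurred once in Abcg2, once in Abcc1 and 2 times in Abcc4, against 29.7% of promoters with any. No TATA box (TATAAA, 14.2%) or antioxidant response element core (TGACNNNGC, 12.1%) was found in these letters. The windows of Abcc4, Abcc1 and Abcg2 were 75.3%, 73.7% and 68.0% G or C, and those of Abcb1b and Abcb1a 58.3% and 53.7%, around a median of 51.7% over all promoters.

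Before the groups are compared, a difference between libraries that crosses them has to be given. The mean log2(FPKM + 0.1) of 6 striatal neuron markers, among them Drd1 and Ppp1r1b, was 7.35 in Con.-3. It was 6.20 in both PTZ-3 and Q808-1 and at most 2.48 in the remaining 5 libraries. The 3 high libraries were thus uneven. Comparisons between them, and a term that counts them alike, still carry a difference in these markers. The 6 measured markers of hippocampal granule and pyramidal neurons, among them Prox1, lay between 1.55 and 2.07 in those 3 libraries and between 3.75 and 3.903 in the 5. The 3 libraries, here called striatum-high, thus lacked much of the hippocampal signature named by their label, and the comparisons are given with and without them. Without them Q808 is represented by Q808-2 alone, and the spread then comes from the other group. The pump levels also stood beside a difference in vessel markers. The 16 endothelial markers, among them Pecam1 and Cldn5, averaged 1.98, 2.00 and 2.20 in Con., 2.09, 1.70 and 2.86 in PTZ and 3.26 and 2.46 in Q808 (log2), and none was at 0. In whole tissue, fewer cells of a type and less RNA per cell cannot be told apart.

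Over the 8 libraries, Abcc5 had the highest mean level with 17.8 FPKM, followed by Abcb1a with 8.76, Abcc1 with 4.80, Abcc4 with 3.97, Abcg2 with 3.66 and Abcb1b with 1.57. Abcc5 was above Abcb1a, and Abcb1a above Abcc1, in 8 of 8 libraries. The order below was less firm, since Abcc1 exceeded Abcc4 in 6 of 8 libraries, and Abcc4 exceeded Abcg2, and Abcg2 exceeded Abcb1b, in 5 of 8. The mean of Abcc5 was at percentile 72.6 of the genes tested and that of Abcb1b at percentile 24.6.

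**Figure D1:**
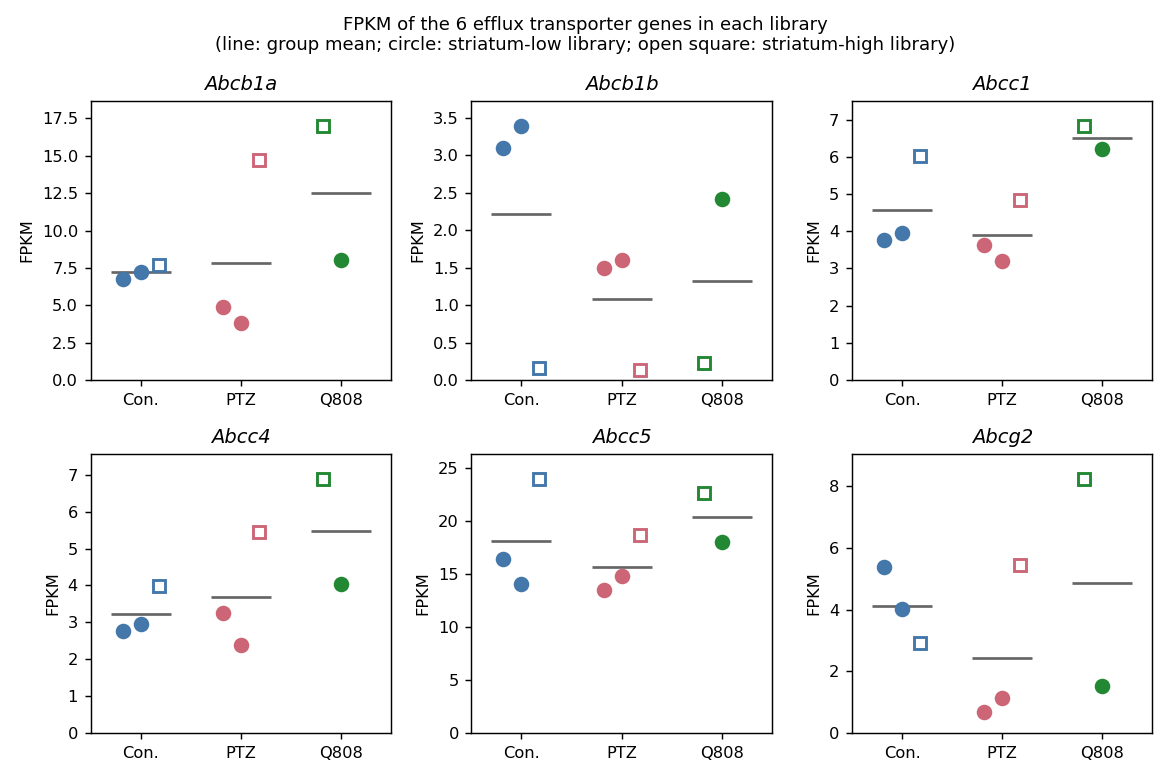
FPKM (y axis) of each pump gene in the Con., PTZ and Q808 groups, with a symbol per library, open squares for the striatum-high libraries and lines for group means. Abcb1b lies between 0.140 and 0.224 FPKM in every open square and between 1.49 and 3.39 in the circles, while Abcb1a is highest in the open squares of PTZ (14.7) and Q808 (17.0).

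Abcb1a encodes the form of P-glycoprotein that predominates in brain capillaries. Its level was 6.74, 7.23 and 7.67 FPKM in the Con. libraries, 4.91, 3.82 and 14.7 in PTZ and 17.0 and 8.02 in Q808. The Con. libraries were close together, with 7.21 ± 0.468 FPKM (SD, n = 3). PTZ fell on both sides of them, with 7.82 ± 6.02 (n = 3), and both Q808 libraries were above them, with 12.5 ± 6.34 (n = 2).

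Abcb1b, its neighbor, encodes the form best known from adrenal gland, kidney and uterus. Its level was 3.10, 3.39 and 0.166 FPKM in Con., 1.49, 1.603 and 0.140 in PTZ and 0.224 and 2.42 in Q808. The groups overlapped, and the lowest library of each was its striatum-high one. Group means were 2.22 ± 1.78, 1.08 ± 0.815 and 1.32 ± 1.55 FPKM. Since the coding sequences of the pair are alike, how reads that match both genes were divided bears on these values and is not given in the sources used here.

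Abcg2 encodes the breast cancer resistance protein, which works as a dimer in the capillary membrane facing the blood. Its level was 5.37, 4.003 and 2.93 FPKM in Con., 0.694, 1.13 and 5.43 in PTZ and 8.24 and 1.52 in Q808. PTZ-1 and PTZ-2 were the lowest of all libraries and Q808-1 the highest, and each group overlapped the others. The means were 4.10 ± 1.22, 2.42 ± 2.62 and 4.88 ± 4.75 FPKM.

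Abcc1 encodes a multidrug resistance-associated protein that exports glutathione conjugates and leukotriene C4. It was measured at 3.76, 3.95 and 6.02 FPKM in Con., at 3.63, 3.20 and 4.83 in PTZ and at 6.82 and 6.21 in Q808. Both Q808 libraries, of which 1 is striatum-high, were above all 6 others, a separation whose share over all genes was not counted. The means were 4.58 ± 1.26, 3.89 ± 0.842 and 6.52 ± 0.436 FPKM.

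Abcc4 encodes an exporter of cyclic nucleotides and prostaglandins. Its level was 2.76, 2.96 and 3.98 FPKM in Con., 3.24, 2.39 and 5.46 in PTZ and 6.89 and 4.04 in Q808. The Q808 libraries were above the Con. libraries (4.04 in Q808-2 against 3.98 in Con.-3), and PTZ-3 lay between the Q808 libraries. Abcc5 encodes a related exporter of nucleotide analogs and cyclic GMP. It was at 16.4, 14.04 and 24.0 FPKM in Con., 13.5, 14.9 and 18.7 in PTZ and 22.7 and 18.0 in Q808, and all 3 groups overlapped.

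In PTZ against Con. rats, none of the 6 pumps passed the limits of the study (unadjusted p under 0.05, fold change above 1.5), where 2.53% of all genes did (3.78% by the p alone). No pump had groups that did not overlap either, against 9.15% of genes. In limma's fit, 5 of the 6 log2 changes were below 0 (6 of 6 with each library shifted by its endothelial list): -1.22 for Abcg2 (SE 0.69), -0.73 for Abcb1b (SE 1.18), -0.22 for Abcc1 (SE 0.27), -0.19 for Abcc5 (SE 0.23) and -0.14 for Abcb1a (SE 0.47). That of Abcc4 was 0.12 (SE 0.34). The 95% confidence interval of Abcg2 ran from -2.86 to 0.42 and that of Abcb1b from -3.51 to 2.05. All adjusted p were 0.999, and 0 genes of 15593 had an adjusted p under 0.05. The median log2 change of the pumps was -0.20 and that of all genes -0.04. When same-numbered rats were paired as a block, 616 genes in place of 395 passed the limits and again no pump did. With the endothelial shift, which moves every gene of a library alike, Abcg2 passed (log2 -1.37, SE 0.51, limma adjusted p = 1). Of the marker lists, erythroid genes were higher in 6 of 6 with 3 past the limits, endothelial genes in 12 of 16 with 1, microglia genes in 8 of 9 with 1, and choroid plexus genes were lower in 7 of 8 with none.

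The pooled values of PTZ hid libraries that went apart. Within the striatum-low libraries (PTZ-1 and PTZ-2 against Con.-1 and Con.-2), mean FPKM of Abcg2 was 5.15-fold lower, and limma's fit on log2(FPKM + 0.1) gave -2.26 (4.80-fold, SE 0.31, limma adjusted p = 0.0472). Abcb1b had a log2 change of -1.02 there (SE 0.21, adjusted p = 0.109) and Abcb1a of -0.68 (SE 0.18, adjusted p = 0.166). Over all the alternatives tried, adjusted p ranged from 0.0472 to 1 for Abcg2, 0.109 to 1 for Abcb1b and 0.166 to 1 for Abcb1a. These 3 pumps passed the limits of the study and Abcc1, Abcc4 and Abcc5 did not, with log2 values from -0.17 to -0.04. The background was high in this comparison, since 9.81% of all genes passed the same limits and 0.898% had an adjusted p under 0.05. Between the striatum-high pair, PTZ-3 was above Con.-3 by 1.92-fold for Abcb1a and 1.85-fold for Abcg2, and these are 2 libraries with no replicate.

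The fitted difference between the striatum-high and the striatum-low change was 3.13 on the log2 scale for Abcg2 (SE 0.51, limma adjusted p = 0.0816) and 1.61 for Abcb1a (SE 0.30, adjusted p = 0.0977). For the other 4 pumps adjusted p lay between 0.304 and 0.793. None was under 0.05. This test was chosen after the pattern was seen in the same values and lends it no independent support. It assumes that the lone striatum-high library of a group varies like the others, and 22.8% of all genes had a p under 0.05 in it. Leaving out PTZ-3 alone from the pooled comparison gave a log2 change of -2.05 for Abcg2 (limma adjusted p = 0.212) and -0.72 for Abcb1a (limma adjusted p = 0.342). Both were past the limits, beside 1135 of 15593 genes. Markers of other cells moved in the same striatum-low libraries. The choroid plexus list, led by Ttr, averaged 3.96 and 4.09 in Con.-1 and Con.-2 and 1.64 and 1.26 in PTZ-1 and PTZ-2, with 8 of 8 measured genes lower and past the limits. The meningeal fibroblast list averaged 1.74 and 1.48 in the former and 0.576 and 0.214 in the latter, with 7 of 8 genes lower and 6 past the limits. The endothelial list differed by -0.10. Between the striatum-high pair the same lists went the other way. From Con.-3 to PTZ-3 the choroid plexus list differed by 1.89, the meningeal list by 2.19 and the endothelial list by 0.66. The pericyte and vessel wall list differed by 1.09 there, the oligodendrocyte list by -0.07 and the striatal list by -1.15. In Q808-2 the choroid plexus list was the highest of all libraries, with 5.54, and Abcg2 was at 1.52 FPKM. The part of these markers in the pump values was not tested.

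**Figure D2:**
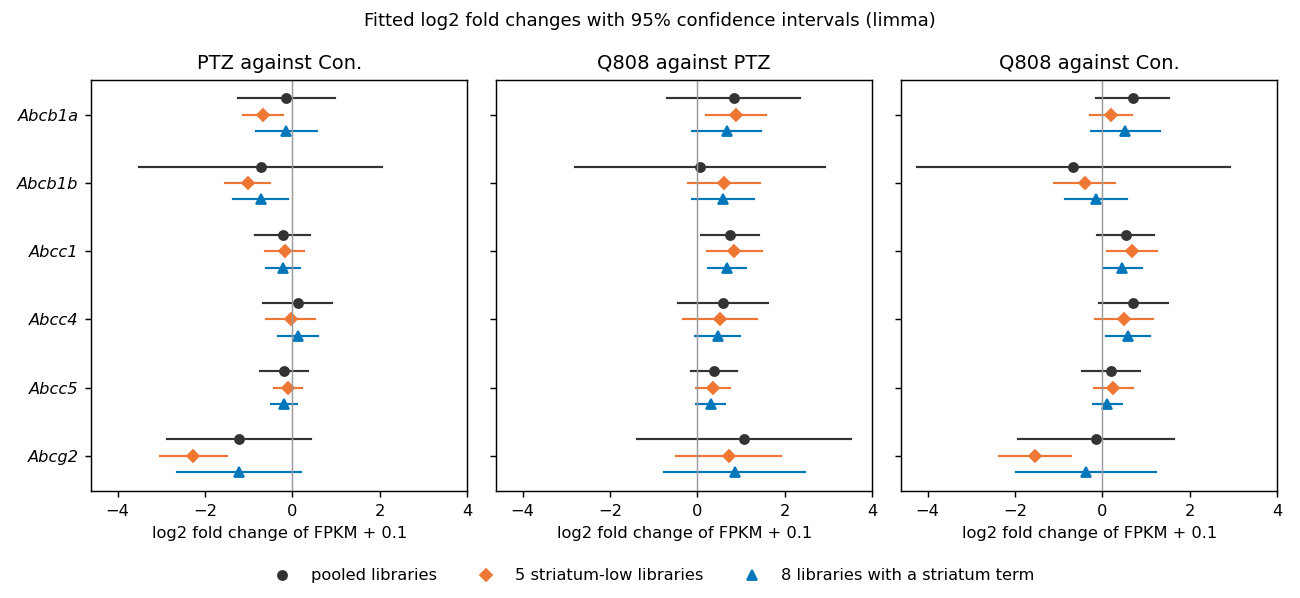
Fitted log2 fold changes (x axis, on FPKM + 0.1) with 95% confidence intervals for each pump in the 3 comparisons, from the pooled libraries, from the 5 striatum-low libraries (1 of them Q808) and from all 8 with a striatum term. The intervals of Abcb1a, Abcb1b and Abcg2 for PTZ against Con. lie below 0 in the striatum-low libraries and include 0 in the pooled ones.

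In Q808 against PTZ rats, Abcc1 passed the limits of the study. All 6 pumps had log2 changes above 0, but Abcb1b turned below 0 with quantile normalization and median ratio scaling, and Abcb1b, Abcc4 and Abcc5 did with the endothelial shift. The median log2 change of the 6 was 0.67, against 0.10 for all genes, of which 1.92% passed the limits (2.19% by the p alone). Abcc1 rose by a log2 change of 0.75 (SE 0.27, 95% confidence interval 0.09 to 1.41, limma adjusted p = 0.952). It was the 1 pump of 6 whose groups did not overlap, as was so for 15.6% of all genes. The others were at 1.07 for Abcg2 (SE 1.01), 0.83 for Abcb1a (SE 0.62), 0.58 for Abcc4 (SE 0.43), 0.38 for Abcc5 (SE 0.22) and 0.06 for Abcb1b (SE 1.18), none of them at a p under 0.05.

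The change of Abcc1 was alike with a term for the striatum-high libraries (log2 0.68, SE 0.19, adjusted p = 0.621), where 4.58% of genes passed the limits and no other pump did. In the striatum-low libraries, where Q808-2 is the only library of its group, it was 0.85 (SE 0.23, adjusted p = 0.359), and Abcb1a passed as well with 0.87 (SE 0.25, adjusted p = 0.37), beside 9.26% of genes. The call of Abcc1 rested on every library but PTZ-3, since it no longer passed without PTZ-1 (log2 0.71), PTZ-2 (0.62), Q808-1 (0.68) or Q808-2 (0.82). It also ended when each library was shifted by its endothelial list (log2 0.10, adjusted p = 0.9), a scaling that moves the median of all genes to -0.55. All 16 endothelial markers and 8 of 8 choroid plexus markers were higher in Q808 than in PTZ, 1 of each past the limits. So were 6 of 6 erythroid genes (2 past the limits), 8 of 8 meningeal fibroblast genes (1), and 8 of 8 oligodendrocyte and 8 of 9 pericyte and vessel wall genes (none). In the striatum-low libraries all 8 choroid plexus and all 8 meningeal genes passed the limits. The part of these markers in the pump levels was not tested. Over all the alternatives, adjusted p of Abcc1 ranged from 0.359 to 1.

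In Q808 against Con. rats, no pump passed the limits, and 3.46% of genes did (4.28% by the p alone). Log2 changes were 0.71 for Abcc4 (SE 0.31), 0.69 for Abcb1a (SE 0.33) and 0.53 for Abcc1 (SE 0.26), and for these 3 pumps the Q808 libraries were above all Con. libraries, beside 20.0% of genes whose groups did not overlap. Abcc5 was at 0.19 (SE 0.27), Abcg2 at -0.15 (SE 0.71) and Abcb1b at -0.67 (SE 1.44). Adjusted p lay between 0.901 and 0.974. With the striatum term, Abcc4 passed the limits with 0.59 (SE 0.22, adjusted p = 0.62), beside 4.86% of genes, and Abcc1 had 0.46 (adjusted p = 0.62), under 1.5-fold. In the striatum-low libraries, where 1 Q808 library stands against 2 of Con. and the spread comes from Con. alone, Abcc1 with 0.68 (adjusted p = 0.839) and Abcg2 with -1.55 (SE 0.30, adjusted p = 0.691) passed, beside 4.71% of genes, and here Abcg2 in Q808-2 stood with the PTZ libraries below Con. Leaving out either Q808 library has the same limit. Without Q808-2, log2 changes were 1.23 for Abcb1a and 1.09 for Abcc4, and without Q808-1 that of Abcg2 was -1.33. Without Con.-3, Abcc1 passed with 0.74 and Abcc4 with 0.86 (adjusted p = 0.664 each), beside 704 of 15593 genes. Endothelial markers were higher in 16 of 16 genes, 8 of them past the limits, and the list mean differed by 0.80 (exact permutation p = 0.1, the smallest possible). Erythroid genes were higher in 6 of 6 (5 past the limits, median log2 change 1.78), pericyte and vessel wall genes in 9 of 9 (5), microglia genes in 9 of 9 (2), and choroid plexus and meningeal genes in 8 of 8 and 7 of 8 (none). Astrocyte and oligodendrocyte genes were also higher, in 8 of 8 each, as were 5 of 6 striatal neuron genes (none past the limits). Hippocampal neuron genes were lower in 4 of 6 (none). The part of these lists was not tested. The shift by the endothelial list put all 6 pumps below 0, with a median of -0.44 against -0.75 for all genes.

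With the striatum term in PTZ against Con., Abcb1b was the 1 pump past the limits, with -0.73 (SE 0.28, limma adjusted p = 0.603), beside 4.31% of genes. The 3 comparisons share libraries in pairs, so the PTZ libraries enter the first with the opposite sign of the second, and no likeness between them is drawn.

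The pumps also differed between the striatum-high and striatum-low libraries. In a fit with the groups as terms, all 6 had a p under 0.05, beside 31.7% of genes, and 4 had an adjusted p under 0.05, beside 15.8%. Abcb1b was lower in the striatum-high libraries, with a log2 change of -3.14 (SE 0.25, limma adjusted p = 0.000292), with 0.177 ± 0.0431 FPKM (SD, n = 3) against 2.40 ± 0.855 (n = 5). The other 5 were higher, Abcg2 by 1.31 (SE 0.56, adjusted p = 0.151), Abcb1a by 0.98 (SE 0.28, adjusted p = 0.0481), Abcc4 by 0.72 (SE 0.18, adjusted p = 0.0309), Abcc5 by 0.47 (SE 0.12, adjusted p = 0.0299) and Abcc1 by 0.44 (SE 0.15, adjusted p = 0.0881). These changes average over the groups. Abcg2 was higher in PTZ-3 and Q808-1 than in the rest of their groups, but lower in Con.-3 (2.93 FPKM against 5.37 and 4.003). Abcb1a in Con.-3 was at 7.67 FPKM against 6.74 and 7.23. The sets did not overlap for Abcb1b and Abcc5 (exact permutation p = 0.0179, the smallest possible), beside 24.8% of genes. The ratio of Abcb1a to Abcb1b was between 2.13 and 3.31 in the 5 libraries and between 46.2 and 105 in the 3, so that Abcb1b gave 23.2% to 31.9% of the P-glycoprotein RNA in the former and 0.942% to 2.12% in the latter. The endothelial list was higher by 0.73 in the striatum-high libraries (exact permutation p = 0.0357) and the oligodendrocyte list by 1.25 (p = 0.0179).

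**Figure D3:**
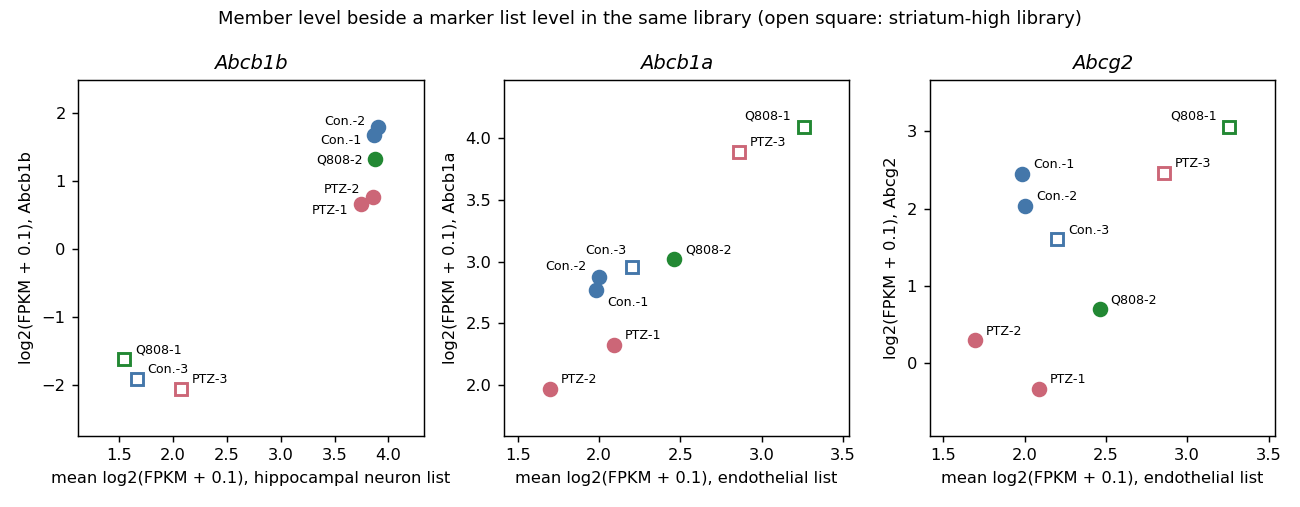
Level of a pump (y axis, log2 of FPKM + 0.1) beside the mean level of a marker list in the same library (x axis, same scale), for Abcb1b with hippocampal neurons and for Abcb1a and Abcg2 with endothelial cells, open squares being striatum-high libraries. Abcb1b falls into sets of 5 and 3 libraries with the hippocampal list, Abcb1a is highest in Q808-1 and PTZ-3 where the endothelial list is 3.26 and 2.86, and Abcg2 is lowest in PTZ-1 and PTZ-2.

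Expressed against the summed FPKM of the 16 endothelial markers, Abcb1a was 5.93%, 6.60% and 6.40% in Con., 3.77%, 3.72% and 7.36% in PTZ and 6.76% and 5.50% in Q808. On this scale PTZ-1 and PTZ-2 were the lowest, and the other 6 libraries lay within 5.50% to 7.36%. Cldn5 made up 38.4% to 43.6% of the sum, and without it Abcb1a was 6.50% and 6.16% in PTZ-1 and PTZ-2 and 9.01% to 12.8% in the others. Abcg2 was 4.73%, 3.65% and 2.45% in Con., 0.532%, 1.099% and 2.71% in PTZ and 3.28% and 1.04% in Q808. The 3 lowest were PTZ-1, PTZ-2 and Q808-2, which are the kindled rats of the striatum-low set, and they were so without Cldn5 as well (0.918%, 1.82% and 1.71%, against 3.97% to 8.38%). The share of all genes that separate these 3 libraries in this way was not counted. Abcc4 varied least, from 2.33% to 3.33%. Abcc1 lay between 2.41% in PTZ-3 and 5.03% in Con.-3, Abcc5 between 9.04% in Q808-1 and 20.0% in Con.-3, and Abcb1b between 0.0700% in PTZ-3 and 3.09% in Con.-2.

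Over the 12563 genes with a mean of at least 1 FPKM, the genes whose level across the 8 libraries was most like each pump were listed by Pearson's r as a description. The libraries fall into the 2 striatum sets, which all these genes share. For Abcb1b they were Clmp, Il16 and Prox1 (r = 0.99 each), Prox1 being a marker of dentate granule cells. For Abcb1a they were Ablim1, Xdh and Tmem198b (0.99 each), and for Abcc4 Lat2, Ankrd60 and Lrch1 (0.99 each). For Abcc1 they were Slc9a8 (0.98), Als2cl (0.96) and Dicer1 (0.96), and for Abcc5 Zbed6, Nup133 and Pik3c2b (0.98 each). Abcg2 had the lowest values, with LOC100365810 (0.96), Zbtb48 and Rbm41 (0.95 each).

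The rest of the ABC superfamily held 47 genes, of which 38 were tested. In PTZ against Con., 6 were higher and 32 lower with a median log2 change of -0.12, and none had a p under 0.05. In Q808 against PTZ, 31 were higher and 7 lower with a median of 0.39, and in Q808 against Con. 28 were higher and 10 lower with a median of 0.17. With the endothelial shift the counts were 7 higher and 31 lower in the former and 1 higher and 37 lower in the latter, and 4 and 34 in PTZ against Con., where that shift put the medians of all genes at -0.55, -0.75 and -0.19. In the pooled libraries the only one past the limits was Abcg3l3, a relative of Abcg2, in Q808 against PTZ (log2 1.49, SE 0.56, adjusted p = 0.952). It was at 0.5997, 0.0647 and 0.667 FPKM in Con., 0.171, 0.208 and 0.504 in PTZ and 1.35 and 0.638 in Q808, low levels that may share reads with its copies. In the striatum-low libraries, 9 were higher and 29 lower in PTZ than in Con. (median -0.25, and -0.11 over all genes). At p under 0.05, 5 of them were lower, beside 3047 of 15593 genes in either direction. Past the limits there were Abcc6, a liver and kidney exporter (log2 -0.96, SE 0.31, adjusted p = 0.203), and Abcd4, a lysosomal cobalamin transporter (-0.82, SE 0.33, adjusted p = 0.255), beside 9.81% of all genes. In Q808-2 against PTZ of that set, 37 were higher and 1 lower, with a median of 0.30 beside 0.16 over all genes. The log2 changes of Abca4, Abcb6, Abcc6, Abcc10 and Abcg3l3 were 0.59 to 2.48 there. Against Con. of that set, 30 were higher and 8 lower, with a median of 0.17 beside 0.05 over all genes, and Abca4 was at 1.82. With the striatum term those past the limits were Abcc10 in Q808 against PTZ (0.67) and Abca7 and Abcb4 in Q808 against Con. (0.59 and 0.67), with none in PTZ against Con. In the pooled libraries, median log2 changes in Q808 against PTZ were 0.65 for the 6 other Abcc genes, 0.56 for 7 Abcg, 0.54 for 4 Abcd, 0.39 for 6 Abcb and 0.29 for 11 Abca genes. The 3 Abcf genes and Abce1, which act in translation and carry no membrane domain, were at 0.07 and 0.01. Between striatum-high and striatum-low libraries, 11 of the 38 were higher and 5 lower at p under 0.05, beside 31.7% of all genes.

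**Figure D4:**
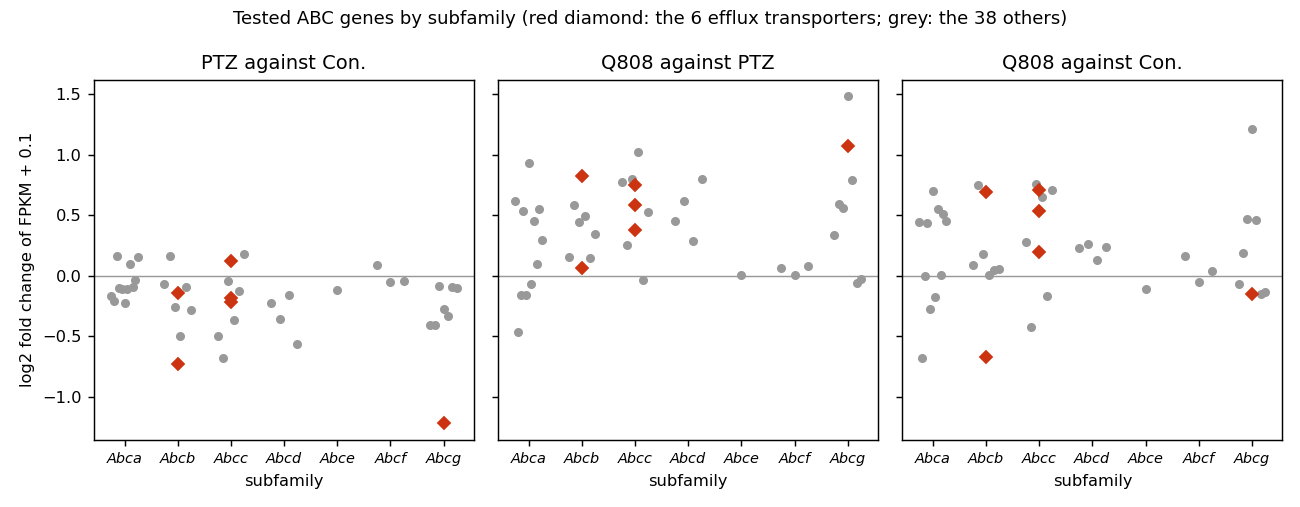
Log2 fold change (y axis, on FPKM + 0.1) of each tested ABC gene by subfamily (x axis) in the 3 comparisons, red diamonds being the 6 pumps and grey points the 38 others. In Q808 against PTZ all 6 pumps and 31 of the 38 others lie above 0, and in PTZ against Con. 5 of the 6 and 32 of the 38 lie below, counts that become 3, 7, 6 and 34 with the endothelial shift, which lowers all genes alike in a library rich in those markers.

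Among 9 further drug and conjugate efflux genes, 7 were tested, 5 of which are also ABC genes counted above. All 7 were higher in Q808 than in PTZ with none at a p under 0.05, and Mvp, the major vault protein, passed in Q808 against Con. (log2 0.70, SE 0.22, adjusted p = 0.901). Mvp was at 5.60, 4.84 and 6.23 FPKM in Con., 5.57, 4.34 and 8.06 in PTZ and 10.7 and 7.67 in Q808, and its log2 change was 0.62 with the striatum term, which passed, 0.55 in the striatum-low libraries and -0.10 with the endothelial shift, which did not. Without the striatum-high libraries Abcc6 passed in PTZ against Con., and Abcc6 and Abcc10 were higher in Q808-2 than in PTZ, as given above. Of 25 known regulators of the pumps, 22 were tested, and in PTZ against Con. 11 were higher and 11 lower. The 2 that passed there act in prostaglandin synthesis, Ptges, the prostaglandin E synthase (log2 1.30, SE 0.40, adjusted p = 0.999), and Pla2g4a, the phospholipase that frees arachidonic acid (1.19, SE 0.38, adjusted p = 0.999). With the endothelial shift neither passed (1.15 and 1.04, adjusted p = 1 each). Without the striatum-high libraries 4 passed: Ptgs2, the inducible cyclooxygenase (2.76, SE 0.16, limma adjusted p = 0.00813), Pla2g4a (1.59, adjusted p = 0.0521), Ptges (1.55, adjusted p = 0.162) and Il1b, the cytokine interleukin 1 beta (0.99, adjusted p = 0.247). At p under 0.05, 5 regulators were higher and 2 lower there, beside 3047 of 15593 genes in either direction. Of all genes, 9.81% passed the limits in that set. With the striatum term Ptgs2 (1.88), Ptges and Pla2g4a passed. In Q808 against PTZ, 14 regulators were higher and 8 lower and none passed, with Ptgs2 at -2.48 (limma adjusted p = 0.952). There Ptgs2 alone passed, as lower, with the striatum term (-2.12, limma adjusted p = 0.621), beside 4.58% of genes. It alone also passed with the endothelial shift (-3.13, limma adjusted p = 0.667). In Q808-2 against PTZ of the striatum-low set, log2 changes were -3.10 for Ptgs2, -1.26 for Pla2g4a and 0.75 for Arnt. Ptges was at 0.728, 0.802 and 0.734 FPKM in Con., 1.61, 3.63 and 1.38 in PTZ and 1.74 and 1.24 in Q808, and also passed in Q808 against Con. (0.88, SE 0.29, adjusted p = 0.901), though not in the striatum-low libraries (0.64), with the striatum term (0.91) or with the endothelial shift (0.08). All 5 kindled libraries were above Con. for Ptges, a separation whose share over all genes was not counted. Ptgs2 was at 13.7, 14.8 and 6.32 FPKM in Con., 82.8, 114 and 6.80 in PTZ and 4.46 and 11.3 in Q808. Its high values were in PTZ-1 and PTZ-2, the libraries lowest in Abcg2 and Abcb1a, and a link to these pumps was not tested. Ptgs2 was lower in the striatum-high libraries, with a log2 change of -2.17 (SE 0.46, adjusted p = 0.0172). That change averages over the groups, and the gap was widest in PTZ (6.80 FPKM against 82.8 and 114). Of the 22 regulators tested, 9 were higher and 1 lower at p under 0.05 in the striatum-high libraries, beside 31.7% of all genes. Sp1, whose protein binds GC boxes, was 1 of those higher, by 0.67 (SE 0.14, adjusted p = 0.0171). A link to the GC boxes of the pump promoters was not tested.

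Of 18 uptake and nutrient carriers of the barrier, all were tested. Slc2a1, the glucose carrier of the capillary wall, was at 50.2, 52.0 and 58.7 FPKM in Con., 94.5, 105 and 84.5 in PTZ and 131 and 72.1 in Q808. It rose in PTZ against Con. (log2 0.82, SE 0.13, adjusted p = 0.999) and in Q808 against Con. (0.86, SE 0.27, adjusted p = 0.901). Mfsd2a, the lipid carrier of the same cells, rose by 0.67 (SE 0.13) and 0.61 (SE 0.21) in the same comparisons. Both were above Con. in all 5 kindled libraries. They were named because they passed, and the share of all genes that separate in this way was not counted. With the endothelial shift neither passed, with 0.66 and 0.52 in PTZ against Con. (adjusted p = 1 each) and 0.06 and -0.18 in Q808 against Con. (adjusted p = 0.895 and 0.683). Within the striatum-low set both passed in PTZ against Con. (0.96, limma adjusted p = 0.0241, and 0.75, adjusted p = 0.0643) and neither in Q808 against Con. (0.50 and 0.43), and with the striatum term Mfsd2a did not pass there (0.58). Slc22a8, an organic anion carrier, passed in Q808 against Con. (0.90, SE 0.26, adjusted p = 0.901). It did not pass with the striatum term (0.82, SE 0.66, limma adjusted p = 0.733) or with the endothelial shift (0.11, limma adjusted p = 0.866). In Q808 against PTZ, 14 of the 18 were higher and none passed. Within the striatum-low set 5 carriers passed as lower in PTZ than in Con.: Slco1a5 (-2.22), Slc22a8, Slco1a4 (-1.26), Ager and Slco1c1 (-0.68), with adjusted p from 0.0521 to 0.198. In that comparison 9.81% of all genes passed. In Q808-2 against PTZ of that set, 12 carriers were higher and 6 lower, and the same 5 and Slc22a5 had log2 changes of 0.67 to 3.98. With the striatum term Ager and Slco1a5 passed as higher in Q808 than in PTZ, beside 4.58% of genes. The choroid plexus and meningeal lists moved the same ways in these libraries, and their part was not tested. Of 18 drug-metabolizing and glutathione enzymes, 15 were tested and 1, the heme oxygenase gene Hmox1, passed in PTZ against Con. (log2 0.73, SE 0.27, adjusted p = 0.999). Hmox1 also passed in the striatum-low libraries (0.74, adjusted p = 0.162) and not with the endothelial shift (0.57, adjusted p = 1). Ephx1, an epoxide hydrolase, had a log2 change of 0.90 in Q808-2 against PTZ of the striatum-low set.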

How the data were processed

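Libraries were made from RNA taken up by mRNA capture beads, 1 per rat. Per the labels and the study's methods, reads were trimmed with Trimmomatic and the authors used Cufflinks to obtain the FPKM of each gene that they deposited. The processing notes also name HISAT2, Bowtie2, StringTie and SAMtools, and HTSeq and DESeq, whose counts were not used here. Versions and genome build are not given in the sources used here. FPKM hold no read counts, so the depth behind each value is unknown, no counting interval is given, and precision rests on the spread between rats. Symbols were matched by GeneID to the RefSeq table of GRCr8 for 20633 of 22601 genes.

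Groups were taken from the labels. The test ran on the log2 of FPKM + 0.1 for the 15593 genes whose mean was at least 0.1 FPKM, with limma 3.58.1 (R 4.3.3; empirical Bayes with a trend), each comparison on its own 2 groups, and p-values were adjusted by Benjamini-Hochberg over all of them. This scale understates changes of low genes. The limits for a call were an unadjusted p under 0.05 together with a fold change above 1.5 in either direction. The procedure was tested on simulated data with a small, equal spread for every gene and no difference between striatum sets. That check does not show how it performs on these libraries. Exact permutation tests were two-sided. Values were handled in Python 3.11.15 with pandas 2.3.3, numpy 2.4.6 and scipy 1.17.1, and plotted with matplotlib 3.10.9.

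The members, gene lists and the division by striatum markers (a list mean above 4 on the log2 scale) were chosen with earlier results of these data known. All members were named. Of each list, genes that passed the limits between groups were named, up to 5 by smallest p, and Ptgs2 and Sp1, which differed between the striatum sets, were chosen after their values were seen. The likeness list took the 3 highest Pearson correlations per member, and the ABC list took every symbol of Abc, a letter and a number. Same-numbered Con. and PTZ libraries deviated together from their group means (correlations 0.212, 0.299 and 0.422 over 15593 genes, the last between 2 striatum-high libraries, while Con.-2 and PTZ-1 had 0.322), so numbers were treated as pairs there, though the labels tie no rats. For Q808 the correlations were -0.379 and 0.527 with Con. and -0.295 and 0.322 with PTZ, and the numbers were taken as names. The alternatives were pseudocounts of 1 and 0.01, no filter, a mean of at least 1 FPKM, quantile normalization, median ratio scaling, a shift by the endothelial list, all groups in one fit, no trend, the replicate block, the 5 striatum-low libraries, a striatum term and each library left out in turn. The test of the difference between striatum sets and the endothelial sum without Cldn5 were added after the data were seen.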

Additional observations from a re-analysis of the deposited data

Results flagged for a closer look

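The change of Abcg2 and Abcb1a from Con. to PTZ went opposite ways in the striatum-high and the striatum-low libraries. For Abcg2 the change was higher by 3.13 on the log2 scale in the striatum-high pair (limma adjusted p = 0.0816), with PTZ-3 above Con.-3 and PTZ-1 and PTZ-2 below Con.-1 and Con.-2. For Abcb1a it was higher by 1.61 (limma adjusted p = 0.0977), in the same directions. The endothelial list was also higher in PTZ-3 than in Con.-3, by 0.66, and differed by -0.10 in the striatum-low libraries. Its part in the pump values was not tested. The striatum-high set holds 1 library of each group, and 22.8% of genes had a p under 0.05 in this test. Neither adjusted p was under 0.05, and the test was chosen after the pattern was seen in the same values, so the difference is not established.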

How the results depend on the processing

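With 2 or 3 rats a group, no pump had an adjusted p under 0.05 in the pooled comparisons, and the intervals of Abcb1b and Abcg2 were wide. Over the alternatives other than leaving out a library, 189 single-pump values kept their direction and their side of the p threshold, 14 crossed it to a lower p, 1 to a higher p, and 12 turned direction. The number of pumps past the limits went from 0 to 1 (Abcg2) with the endothelial shift, to 3 in the striatum-low libraries and to 1 with the striatum term in PTZ against Con., from 1 to 0, 2 and 1 in Q808 against PTZ, and from 0 to 0, 2 and 1 in Q808 against Con. With the replicate block it was 3 in Q808 against PTZ (Abcb1a, Abcc1 and Abcc4) and 2 in Q808 against Con. (Abcc1 and Abcc4), where numbers are names only, and no pump changed call in PTZ against Con.

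Genes past the limits numbered 395 for PTZ against Con., 300 for Q808 against PTZ and 540 for Q808 against Con. In that order they became 616, 1894 and 1076 with the block, 1530, 1444 and 735 in the striatum-low libraries, and 672, 714 and 758 with the striatum term. A pseudocount of 1 gave 219 in the first and 340 in the last, a mean of at least 1 FPKM gave 193 in Q808 against PTZ, and the endothelial shift gave 2986 in Q808 against Con. The split of higher and lower genes moved with the scaling, from 264 and 131, 212 and 88, and 479 and 61 to 71 and 317, 11 and 238, and 16 and 2970 with the endothelial shift. Quantile normalization gave 130 and 142 in Q808 against PTZ and 283 and 158 in Q808 against Con. The endothelial shift moves all genes of a library alike and put their median at -0.19, -0.55 and -0.75, so directions that turn under it are relative to that shift.

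Directions turned as follows, with the cause not tested. In PTZ against Con., Abcc4 became -0.029 with the endothelial shift and -0.037 in the striatum-low libraries. In Q808 against PTZ, Abcb1b became -0.16 with quantile normalization, -0.035 with median ratio scaling, -0.58 with the endothelial shift and -0.86 with the block, and the endothelial shift gave -0.061 for Abcc4 and -0.27 for Abcc5. In Q808 against Con. it gave -0.11 for Abcb1a, -0.27 for Abcc1, -0.090 for Abcc4 and -0.60 for Abcc5.

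Leaving out single libraries gave 0 to 2 pumps past the limits in each comparison, and 249 to 1135, 132 to 1569 and 279 to 1799 genes. The highest of these came without PTZ-3, PTZ-3 and Q808-2, and the lowest without PTZ-2, PTZ-1 and Con.-2. In PTZ against Con., log2 changes then ranged from -0.72 to 0.24 for Abcb1a (above 0 without PTZ-1 or PTZ-2), -1.95 to 0.20 for Abcb1b (above 0 without PTZ-3), -0.19 to 0.39 for Abcc4 (below 0 without PTZ-3) and -0.35 to 0.032 for Abcc5 (above 0 without Con.-3). In Q808 against PTZ they ranged from -1.42 to 1.54 for Abcb1b (below 0 without PTZ-3 or Q808-2) and -0.11 to 2.25 for Abcg2 (below 0 without Q808-1). In Q808 against Con. they ranged from -2.15 to 0.81 for Abcb1b (above 0 without Q808-1) and -1.33 to 1.03 for Abcg2 (above 0 without Con.-1 or Q808-2).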
